A study of Mus musculus with 6 samples.

Results

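The genes described here are 9 genes of the major histocompatibility complex (MHC) class I pathway and antigen processing, H2-D1, H2-K1, B2m, Tap1, Tap2, Tapbp, Psmb8, Psmb9 and the interferon-induced gene Ifit3, chosen by symbol out of 24411 genes in the count tables. All 9 were present and all 9 were among the 15519 genes that passed the filter on low counts. They were measured by bulk RNA sequencing in cerebellum of mice at postnatal day 18, with 3 libraries of wild-type mice (WT) and 3 of mice in which a remote enhancer of Atoh7, a retinal neurogenesis gene, is knocked out (KO). The labels name no strain or sex and, unless the tag Set8 in every sample title is one, no further allele. What that tag stands for was not established here. The labels do not say whether animals were pooled. The protocol calls the replicates independent without saying what was independent, so p-values measure the spread between these libraries.

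Class I molecules present short peptides from inside the cell to CD8 T cells. A polymorphic heavy chain pairs with beta-2 microglobulin (B2m) and receives its peptide in the endoplasmic reticulum. The peptides are cut by the proteasome, whose interferon-induced catalytic subunits form the immunoproteasome, and are carried into the endoplasmic reticulum by the TAP transporter, to which tapasin (Tapbp) tethers the empty heavy chain. Healthy brain carries little class I protein, much of it on blood vessels and microglia, and interferons raise the whole pathway.

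The libraries differed in ways that bear on every comparison. Gene reads numbered 16340132 to 34438262 per library, and the lowest total belonged to WT replicate 3, in which 63.2% of gene reads came from the ribosomal RNA precursor Rn45s, against 1.28% to 3.04% elsewhere, leaving 6015125 reads on other genes. Reads assigned to no gene averaged 34.3% ± 3.59 in the WT and 17.3% ± 0.291 in the KO libraries (SD, n = 3 each). WT replicate 1 had 31134 reads of Xist and 0 reads on 4 Y-linked genes, while the other libraries had at most 10 Xist reads and 1510 or more Y-linked reads, so sex was not balanced either. Atoh7 had 72, 56 and 7 reads in WT and 45, 54 and 92 in KO (log2 −0.18, SE 0.28, edgeR adjusted p = 0.706), and as the deleted element lies outside the gene this does not check the genotype. Although the tissue entry in the labels reads retina, cerebellar markers summed to 5299 to 6952 CPM, counts scaled to a common library size (1e+06 reads), and retinal markers to 7.60 to 10.2 CPM, with Itpr1, the Purkinje cell calcium release channel, highest among the former and the photoreceptor factor Crx at 0 reads in every library.

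The 9 genes showed no common direction between genotypes. Only H2-D1 rose, 0 fell and 8 missed the threshold (edgeR's quasi-likelihood test, adjusted p under 0.05), where 16.7% of all tested genes passed, 6.43% higher and 10.2% lower in KO. At an unadjusted p under 0.05 the number was likewise 1, and DESeq2 and limma-voom also called 1 higher and 0 lower. Log2 fold changes, KO minus WT throughout, ran from −0.33 (Psmb9) to 0.40 (Ifit3), with 4 above and 5 below 0 and a median of −0.10, beside −0.01 over all tested genes. The median size of the change, regardless of sign, was 0.18 for the 9 genes and 0.17 for all tested genes. Only H2-D1 kept its 3 KO libraries apart from its 3 WT libraries in CPM, against 39.4% of all tested genes with groups that did not overlap.

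Levels per length put the light chain far above its partners. Scaled to the length of all annotated exons (CPM per kb), B2m stood at 55.6 ± 9.01 in WT and 50.9 ± 1.26 in KO (SD, n = 3 each). Tapbp followed at 8.07 ± 0.964 in WT, then H2-D1 at 5.94 ± 0.497, H2-K1 at 4.59 ± 0.541 and Ifit3 at 2.60 ± 0.460 CPM per kb. Tap2 (1.12 ± 0.175), Tap1 (0.508 ± 0.0504), Psmb8 (0.325 ± 0.125) and Psmb9 (0.127 ± 0.0245 CPM per kb) closed the order in WT. The order of the means was the same in KO. In WT no neighbours in this order overlapped in single libraries; Tap1 and Psmb8 came close, at 0.453 to 0.552 and 0.183 to 0.421 CPM per kb. In KO H2-K1 (3.46 to 5.35) and Ifit3 (2.82 to 4.17 CPM per kb) overlapped. Exon lengths include exons of retained-intron transcripts, which lowers the value per kb of genes that have many of them.

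**Figure D1:**
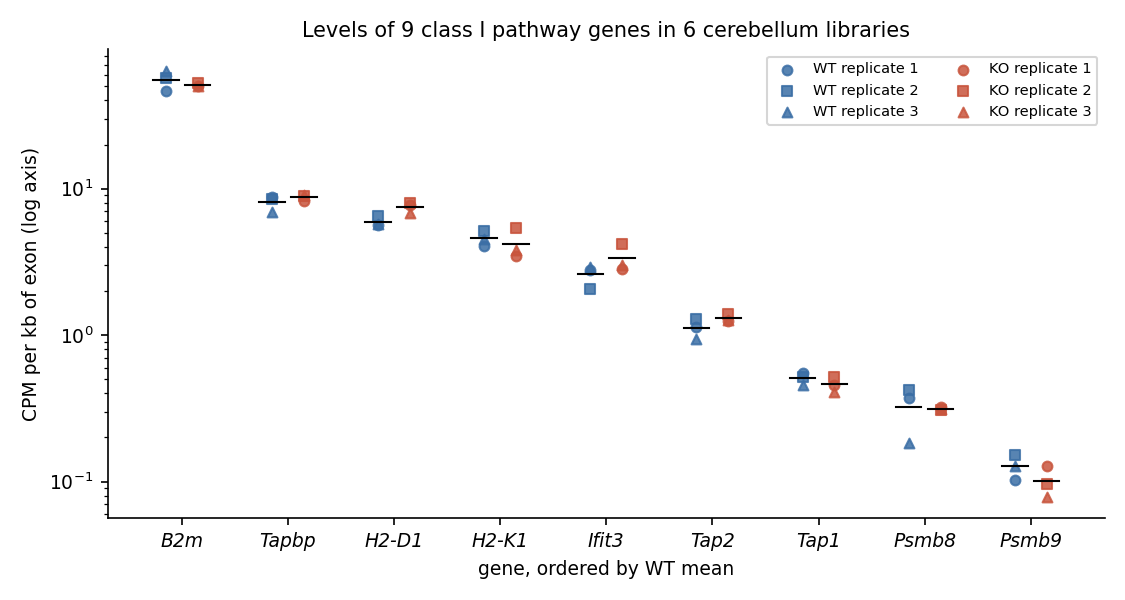
Levels of the 9 genes in each library, as CPM per kb of exon on a log axis; symbols mark the replicates, colours the genotype and black bars the mean of 3 libraries. B2m lies near 50 and Psmb9 near 0.1, and H2-D1 is the gene whose KO points all lie above its WT points.

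Of the classical heavy chains, H2-D1 rose and H2-K1 did not pass; the difference between their changes was not tested. H2-D1 (chromosome 17, 35262730 to 35267499, plus strand, GRCm38) had 14.5, 16.8 and 14.7 CPM in WT replicates 1 to 3 and 19.9, 20.4 and 17.5 CPM in KO replicates 1 to 3. The lowest KO library lay above the highest WT library. The WT mean of H2-D1 was 15.3 ± 1.28 and its KO mean 19.3 ± 1.53 CPM (SD over 3 libraries). This rise of 1.25 fold (log2 0.32, SE 0.10) had an adjusted p of 0.0460 (edgeR quasi-likelihood, Benjamini-Hochberg). The call sat at the threshold: it was lost without any 1 of WT replicates 1 and 2 and KO replicates 1, 2 and 3 (log2 0.26 to 0.41, adjusted p from 0.0529 to 0.155), and kept without WT replicate 3 (0.31, adjusted p = 0.0327). It was also lost with the replicate number as a block (0.34, adjusted p = 0.0873) and with a covariate for read assignment, the log2 of unassigned over assigned reads (0.25, adjusted p = 0.342).

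H2-K1 (chromosome 17, 33996017 to 34000347, minus strand) had 11.99, 15.2 and 13.3 CPM in WT replicates 1 to 3 and 10.2, 15.7 and 11.2 CPM in KO replicates 1 to 3. KO replicate 2 was the highest of all 6 libraries and the other KO libraries the lowest. The means were 13.5 ± 1.59 in WT and 12.4 ± 2.96 CPM in KO, and the change of −0.13 (SE 0.17, edgeR adjusted p = 0.634) was smaller than the spread between replicates. The number of H2-D1 reads per H2-K1 read, a quantity free of library scaling that was looked at after the values were seen and was not tested, was 1.21, 1.11 and 1.10 in WT and 1.96, 1.299 and 1.57 in KO. Both groups thus had more H2-D1 than H2-K1 reads, and the KO libraries had the larger excess.

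Promoter sequences are printed for the genes with a match, to set H2-D1 and H2-K1 side by side. They are stretches before the RefSeq transcription start (GRCm38.p6) around 2 short motifs searched on both strands, AANNGAAA, the core bound by interferon regulatory factors (IRF), and GGGNNTTCC, a form of the NF-kappaB site. Each is 5′ to 3′ on the gene's strand. The interferon letters were first searched as GAANNGAAA, which matched 2 of 8 genes (H2-D1 and H2-K1) and 6.34% of all promoters. They were shortened to the IRF core after those matches and the sequences had been seen, which raised the count to 4 of 8, so neither count is a test. Capitals mark matches.
H2-D1, chr17:35262903-35262971, plus strand: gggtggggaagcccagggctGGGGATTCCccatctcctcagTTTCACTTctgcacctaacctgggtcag
H2-K1, chr17:34000410-34000478, minus strand: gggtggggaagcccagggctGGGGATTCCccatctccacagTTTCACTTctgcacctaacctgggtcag
B2m, chr2:122147530-122147577, plus strand: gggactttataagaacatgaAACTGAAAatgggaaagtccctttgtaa
Ifit3, chr19:34583353-34583434, plus strand: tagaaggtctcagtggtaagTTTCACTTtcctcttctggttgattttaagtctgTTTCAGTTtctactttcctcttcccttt

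The H2-D1 and H2-K1 stretches were identical in 68 of 69 bases and differed by T38A, with the H2-D1 base first and positions counted from 1 at the 5′ end of the stretch. Both motifs stood in the same order in both genes, and the IRF core lay 150 to 143 bases before the start of H2-D1 and 90 to 83 bases before that of H2-K1. These distances depend on the RefSeq start used, the first listed for each gene, and H2-K1 and Ifit3 had 2 starts listed. The H2-D1 stretch lies inside the span given above for that gene, which comes from another annotation (GENCODE). B2m had an IRF core and no match to the NF-kappaB letters, and Ifit3 had 2 IRF cores. Of the 8 of 9 genes with an entry in the promoter table (Tap2 had none), 4 held the IRF core and 2 the NF-kappaB letters within 250 bases, against 21.6% and 4.88% of all 27025 promoters of that length. A match describes letters only. The near-identical stretches of H2-D1 and H2-K1 stood beside changes of 0.32 and −0.13 on the log2 scale.

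B2m (chromosome 2, 122147686 to 122153083), the light chain shared by all class I molecules, had 39.6, 48.7 and 55.0 CPM in WT and 43.2, 45.0 and 43.1 CPM in KO. The KO libraries lay within the range of the WT libraries. The means were 47.8 ± 7.74 in WT and 43.8 ± 1.08 CPM in KO (log2 −0.10, SE 0.10, adjusted p = 0.520). Leaving out WT replicate 3, which had the highest B2m and the most Rn45s, moved the value to −0.01, and leaving out WT replicate 1 moved it to −0.23 (edgeR adjusted p = 0.0864).

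The peptide transporter and its tether did not pass the test in either direction. Tap1 (chromosome 17, 34187553 to 34197225) had 3.02, 2.85 and 2.48 CPM in WT and 2.52, 2.83 and 2.24 CPM in KO (log2 −0.18, SE 0.16, adjusted p = 0.474). Tap2 (34203527 to 34216321), the other TAP subunit, had 4.30, 4.89 and 3.56 CPM in WT and 4.69, 5.30 and 4.77 CPM in KO (0.16, SE 0.14, adjusted p = 0.466). Groups overlapped for both subunits. Tapbp (33915899 to 33929292) had 31.7, 30.9 and 25.3 CPM in WT and 29.8, 32.4 and 32.9 CPM in KO (0.09, SE 0.09, adjusted p = 0.526). WT replicate 3 was the lowest library for Tap2 and Tapbp. Tapbp was the only one of the 9 with more than 6 reads on the opposite strand in a library, 21 to 129. GENCODE places the antisense gene Gm19412 within its span, as well as Zbtb22 on the same strand. With that annotation, reads that fall on both Tapbp and Zbtb22 would not be counted for either. The RefSeq start of Tapbp lies past the GENCODE end of Zbtb22 (33919325). Which annotation the deposited counts used is not named, so whether such reads were lost is not known.

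The immunoproteasome subunits had few reads. Psmb8 (34197721 to 34201454), also called LMP7, had 43, 46 and 4 reads in WT and 42, 41 and 44 reads in KO, or 0.620 to 1.42 CPM in WT and 1.03 to 1.09 CPM in KO (log2 −0.22, SE 0.24, adjusted p = 0.565). Psmb9 (34181987 to 34187764, minus strand), also called LMP2, had 13, 18 and 3 reads in WT and 18, 14 and 12 reads in KO (−0.33, SE 0.35, adjusted p = 0.549). A change of the size seen for H2-D1 was smaller than the SE of Psmb9, so it was not detectable at this depth. In WT replicate 3 the 3 Psmb9 reads are themselves the floor used here, 3 reads in a library, equal to 0.184 CPM before TMM scaling there and 0.0871 to 0.112 CPM in the other libraries.

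Each immunoproteasome subunit replaces a constitutive one, which allows a ratio within a library that needs no scaling. Psmb8 reads were 5.62%, 6.13% and 3.23% of those of its counterpart Psmb5 in WT and 5.01%, 4.15% and 4.37% in KO. Psmb9 reads were 0.664%, 0.916% and 0.785% of Psmb6 reads in WT and 0.631%, 0.481% and 0.379% in KO, so the groups did not overlap (log2 difference −0.68). Its exact permutation p, two-sided, was 0.1, which is the lowest value available to 3 against 3 libraries, and 0.3 after adjustment over the 3 ratios. Psmb10 reads were 13.4%, 13.6% and 10.4% of Psmb7 reads in WT and 12.6%, 13.3% and 13.5% in KO. The exact p was 0.8 for the Psmb8 ratio (0.9 adjusted) and 0.9 for the Psmb10 ratio (0.9 adjusted). The denominator of the Psmb9 ratio moved by itself: Psmb6, the constitutive beta-1 subunit, rose from a mean of 59.0 ± 1.98 in WT to one of 74.6 ± 1.53 CPM in KO (0.34, SE 0.06, adjusted p = 0.00506 in edgeR). Psmb5 (0.11), Psmb7 (0.18) and Psmb10 (0.22) did not pass, but without WT replicate 3 Psmb7 did (0.21, edgeR adjusted p = 0.0155).

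Ifit3 (chromosome 19, 34583531 to 34588731), an antiviral RNA-binding protein gene induced by interferon that is not part of the presentation machinery, had 4.88, 3.62 and 5.11 CPM in WT and 4.93, 7.27 and 5.26 CPM in KO. KO replicate 2 was the highest library and KO replicate 1 lay below WT replicate 3. Its log2 fold change of 0.40 (SE 0.19, adjusted p = 0.170) had the largest size among the 9 genes without passing, and fell to 0.21 without KO replicate 2 and to 0.23 without WT replicate 2. Its neighbour and near copy Ifit3b had 2.21, 1.86 and 2.63 CPM in WT and 3.32, 4.39 and 2.80 CPM in KO and passed (0.72, SE 0.21, adjusted p = 0.0415), a call lost without any 1 of WT replicates 1 and 2 and KO replicates 1 and 2 (0.53 to 0.77), with the block (adjusted p = 0.102) and with the read assignment covariate (adjusted p = 0.145). The 82-base promoter stretch printed for Ifit3 occurs letter for letter before Ifit3b.

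**Figure D2:**
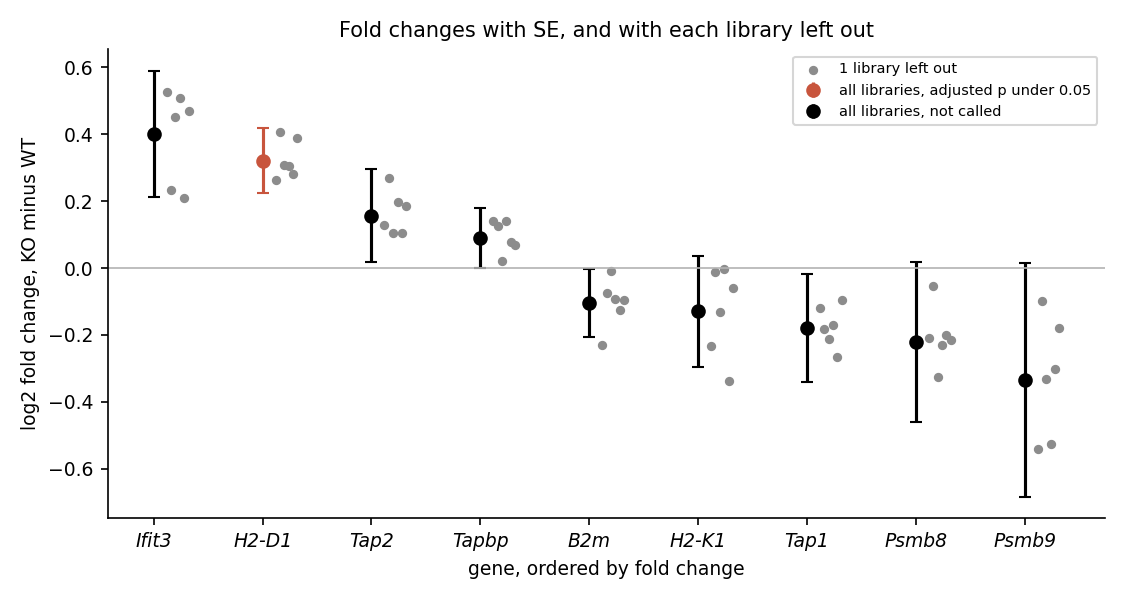
Log2 fold change, KO minus WT, of the 9 genes with its SE (large points) and after each of the 6 libraries was left out (small grey points), ordered by size. H2-D1 at 0.32 is the gene past the threshold, Ifit3 at 0.40 has a wider SE, and no gene changes sign when 1 library is left out.

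Near-identical copies limit what a read can say about some of these genes. Across the annotated transcripts, 51.2% of all 50-base stretches of Ifit3 also occur in another gene, in each case Ifit3b, and 31.7% of its 100-base stretches do. H2-D1 shared 12.8% of its 50-base stretches with transcripts of other genes, most with H2-Q1 (5.87%), and H2-K1 shared 9.63%, most with H2-Q10 (5.18%). At 100 bases these shares were 3.59% and 0.957%. B2m shared 0% at either length. Psmb8 (11.9%), Tap2 (11.6%) and Tapbp (23.2%) shared stretches mainly with annotated genes on the opposite strand of the same locus (Gm20496, Gm15821 and Gm19412), which counting by strand keeps apart, and Tap1 (3.33%) and Psmb9 (4.19%) mainly with each other, their 5′ ends overlapping head to head. The read length is not given in the sources used here, and no gene annotation is named for the deposited counts. The share of reads dropped as mapping to several places therefore cannot be given per gene. Over whole libraries that share was 6.97% to 7.85% in WT and 8.84% to 9.83% in KO, so the genotypes did not overlap. What this did to the counts of the similar genes was not tested.

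**Figure D3:**
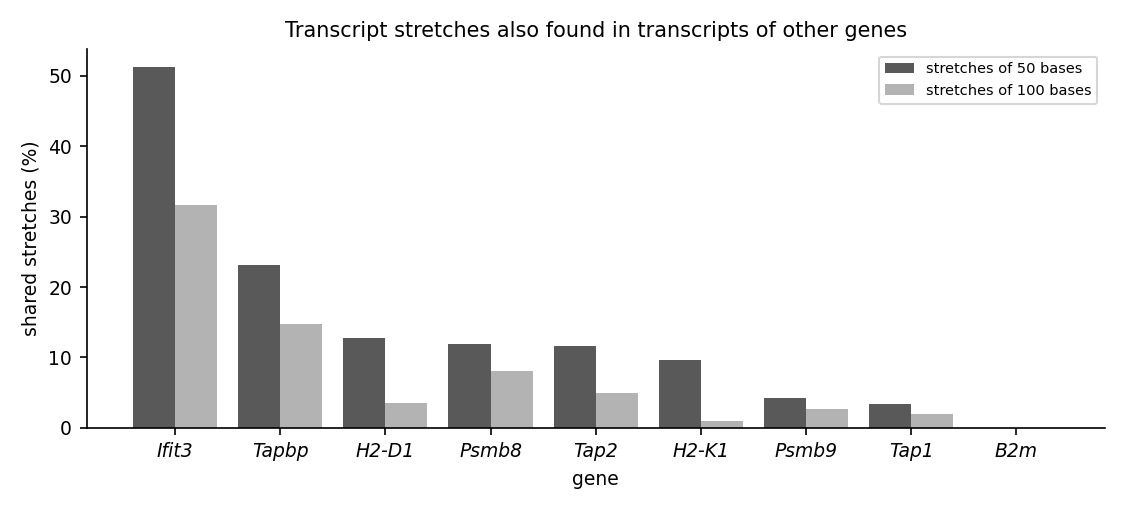
Share of the distinct 50-base and 100-base stretches of each gene's annotated transcripts that also occur, on either strand, in transcripts of another gene. Ifit3 stands at 51.2% and 31.7%, B2m at 0%, and H2-D1 and H2-K1 at 12.8% and 9.63% for 50 bases.

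Class I heavy chains differ between mouse strains in sequence and in number of genes, and mm10 is the genome of C57BL/6J. How well reads of a heavy chain align can depend on its allele. The labels name no strain, so an H2 haplotype and the genotype cannot be told apart for these genes. Along the stretch of chromosome 17 from Tapbp to H2-D1 (33915899 to 35267499, 1.35 Mb), which was defined after the values were seen, 11 of 72 tested genes (15.3%) passed, 3 higher and 8 lower, with a median of −0.07. The share is near the 16.7% of all tested genes. Among them were the complement gene C4b (−0.51, SE 0.11), the tenascin gene Tnxb (−0.73, SE 0.12), Ager (−1.28, SE 0.30), Rgl2 near Tapbp (−0.72, SE 0.10), and Atp6v1g2, the tested gene next but one to H2-D1 (0.24, SE 0.07). H2-D1 was the only class I gene among the 11.

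**Figure D4:**
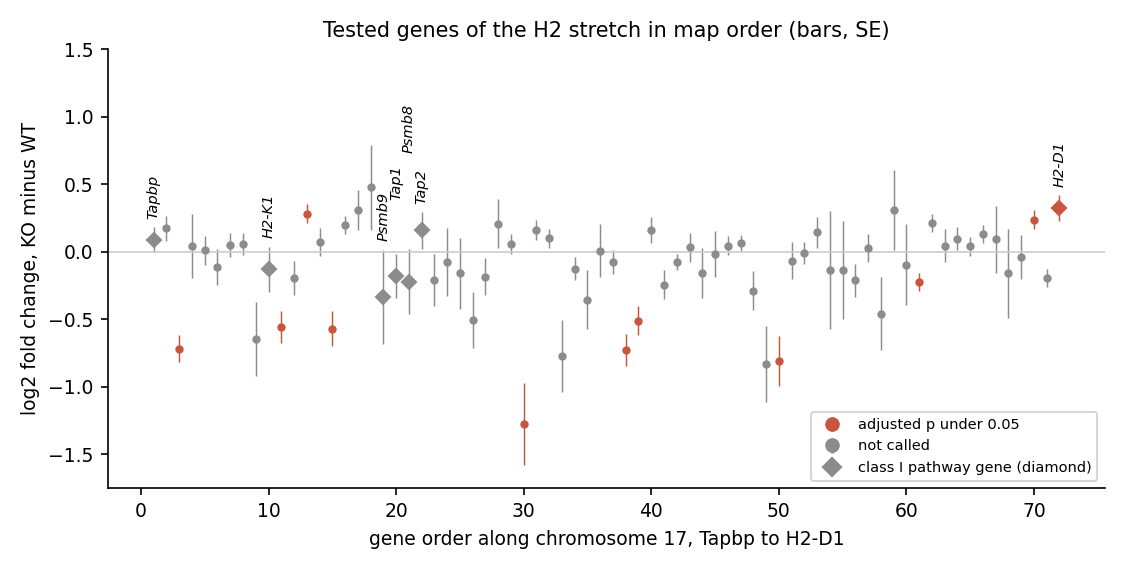
Log2 fold change, KO minus WT, with SE, of 72 tested genes from Tapbp to H2-D1 in map order on chromosome 17; diamonds mark the class I pathway genes and colour the genes past the threshold. The 11 coloured genes are spread along the stretch, 3 above and 8 below 0.

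Other class I heavy chains did not pass in either direction, and many had few reads or none. The tables hold 32 class I rows of the H2 complex, of which 15 had 0 reads in all 6 libraries, among them H2-L, H2-Q6, H2-Q7, H2-Q8 and H2-Q9. Reads that fit several of these similar genes are not counted by the tables, so 0 reads does not show that the gene was silent. H2-D1 and H2-K1 together held 70.9% of the 8328 class I reads. Of the 10 other tested rows, H2-K2 and H2-T24 had every KO library below every WT library in CPM. Neither passed (H2-K2 −0.65, edgeR adjusted p = 0.129, and H2-T24 −0.70, adjusted p = 0.141), and both had at most 40 reads in a library. The groups overlapped in the rest of these rows. Of all tested genes, 20.5% had KO below WT without overlap. Of 26 listed heavy chain genes outside the 9, including the class I-like molecules Mr1, Cd1d1, Fcgrt and Hfe, 13 were tested and 0 passed in edgeR, DESeq2 or limma-voom (1 at an unadjusted p under 0.05, median −0.09). Without WT replicate 3, Fcgrt, the neonatal Fc receptor, was called lower (−0.24, edgeR adjusted p = 0.0448), as it was with the read assignment covariate (−0.51, adjusted p = 0.0286), against −0.14 with all libraries and no covariate. Its mean, not scaled to length, was 18.4 CPM in WT, above the 15.3 of H2-D1. In KO it was 17.2 CPM, below the 19.3 of H2-D1. H2-T23, which encodes the nonclassical Qa-1 that presents signal peptides to natural killer cell receptors, had 4.08 ± 0.179 CPM in WT and 4.15 ± 0.162 in KO (SD, n = 3 each; log2 0.01, SE 0.13).

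Of 15 tested peptide loading and trimming genes, 0 passed in edgeR, DESeq2 or limma-voom (2 at an unadjusted p under 0.05, median −0.09). Without WT replicate 3, the peptidase Tpp2 was called lower (−0.15, edgeR adjusted p = 0.0476). Calreticulin (Calr, −0.16), calnexin (Canx, 0.00), the disulfide isomerase Pdia3 (−0.09), the trimming peptidase Erap1 (−0.05) and the peptide editor Tapbpl (0.17) were among them, chosen here for their role. Among 21 further proteasome genes Psmb6 rose, Psme4 fell and the other 19 missed the threshold (median 0.11). That is 9.52% called, against 16.7% of all tested genes. Without WT replicate 3, 6 were called higher and 2 lower, and with the read assignment covariate 3 were called higher and 1 lower. Psme4, a proteasome activator, had a WT mean of 93.1 ± 5.32 and a KO mean of 67.6 ± 0.538 CPM (SD over 3 libraries; log2 −0.47, SE 0.06, adjusted p = 0.00116 in edgeR). The interferon-induced activator subunits Psme1 (0.09) and Psme2 (0.11) did not pass. The calls of Psmb6 and Psme4 held with each library left out, with the block and with the read assignment covariate.

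Among the regulators, several genes of the type I interferon signalling chain fell. Of 28 tested genes 7 fell, 1 rose and 20 missed the threshold (median −0.14). That is 28.6% called, against 16.7% of all tested genes. With the replicate block 2 fell and 0 rose (7.14%, against 6.91% of all tested genes), and with the read assignment covariate 3 fell and 0 rose (10.7% against 9.16%). Irf3, a transcription factor of the innate antiviral response, had 19.8, 21.6 and 17.8 CPM in WT and 14.6, 13.98 and 12.3 CPM in KO (−0.55, SE 0.10, adjusted p = 0.00497 in edgeR). Stat2 (−0.40, SE 0.09) and Irf9 (−0.49, SE 0.11), which act together in the type I interferon response, fell as well. The kinases Tyk2 (−0.49, SE 0.11) and Jak2 (−0.28, SE 0.07) and the phosphatase Ptpn2, which dampens cytokine signalling (−0.50, SE 0.08), fell too. The interferon gamma receptor subunit Ifngr2 rose from 48.2 ± 2.41 to 58.8 ± 1.13 CPM (0.28, SE 0.06, adjusted p = 0.0154 in edgeR). Nlrc5, the transactivator of class I genes, stood at 0.501 ± 0.180 CPM in WT and 0.526 ± 0.122 in KO and did not pass, and of the RFX subunits that recruit it Rfxank fell (−0.32, SE 0.09). Leaving out 1 library kept Irf3 and Ptpn2 past the threshold each time; Irf9 and Tyk2 lost their calls without KO replicate 1 or 3, Stat2 without WT replicate 2 or KO replicate 2 or 3, Jak2 without WT replicate 1 or any KO replicate, Ifngr2 without WT replicate 2 or KO replicate 2 or 3, and Rfxank without any library but WT replicate 3. The block also ended the calls of Irf9 (adjusted p = 0.0735), Tyk2 (0.0534), Stat2 (0.0646), Jak2 (0.0907), Ifngr2 (0.0735) and Rfxank (0.118), and DESeq2 that of Rfxank (0.0536). Counts taken without regard to strand put Rfxank at −0.17 and ended its call as well (edgeR adjusted p = 0.265). The genotypes differed in reads assigned to no gene. With the covariate for it, Irf3 (−0.72, adjusted p = 0.00828) and Stat2 (−0.54, adjusted p = 0.0241) stayed past the threshold in edgeR. Tyk2 (−0.23, adjusted p = 0.319), Irf9 (0.190), Jak2 (0.187), Ptpn2 (0.0678), Rfxank (0.0775) and Ifngr2 (0.180) did not. The list mixes activators with inhibitors.

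Most of the listed genes that interferon induces lay below 0, though few passed the test. Of 54 listed genes 47 were tested, 34 below 0 and 13 above. The signs were not counted under the alternatives. Among the 47 tested 4 fell, Ifit3b alone rose, and 42 missed the threshold (median −0.15, beside −0.01 over all tested genes). That is 10.6% called, against 16.7% of all tested genes. Gbp4, an interferon-induced guanylate-binding protein, had 38, 41 and 14 reads in WT and 16, 16 and 12 reads in KO, means of 1.51 ± 0.574 and 0.369 ± 0.0696 CPM (−1.83, SE 0.31, adjusted p = 0.00377 in edgeR). Sp100, a nuclear body protein (−1.27, SE 0.27), Mx2, an antiviral GTPase (−0.85, SE 0.17), and Trim30a (−0.73, SE 0.22) fell too. With the read assignment covariate 0 of these 4 falls kept its call in edgeR: Gbp4 was at −1.22 (adjusted p = 0.0972), Mx2 at −0.91 (0.0759), Sp100 at −0.85 (0.208) and Trim30a at −0.24 (0.689). The block ended the call of Trim30a (0.0742). The calls of Gbp4 and Mx2 held with each library left out, Sp100 lost its call without KO replicate 1 or 3, and Trim30a without WT replicate 2 or any KO replicate. Of widely used interferon signature genes, Isg15 was at −0.09, Ifit1 at −0.47, Usp18 at 0.29, Oasl2 at 0.28 and Bst2 at −0.53. None of these 5 passed, and they were named after the values were seen.

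**Figure D5:**
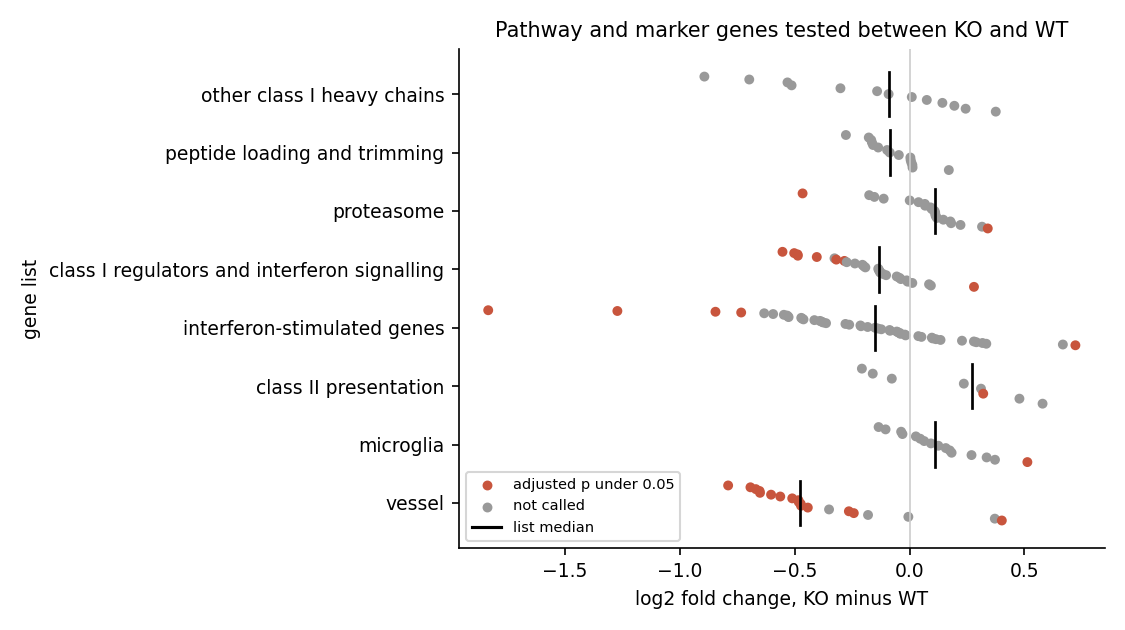
Log2 fold changes, KO minus WT, of tested genes in 6 pathway lists and 2 cell type lists; points are genes, coloured where the adjusted p was under 0.05, and black bars are list medians. Values below 0 dominate the regulator, interferon-stimulated and vessel lists (medians −0.14, −0.15 and −0.48), while heavy chain and peptide loading genes have 0 coloured points.

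Class II presentation, the pathway of professional antigen-presenting cells, had 1 of 8 tested genes higher and 0 lower (median 0.27). That is 12.5% called, against 16.7% of all tested genes. The riser was Ctss, the lysosomal protease cathepsin S that microglia also express, from 24.3 ± 1.06 to 30.4 ± 1.65 CPM (SD, n = 3 each; 0.32, SE 0.08, adjusted p = 0.0185 in edgeR), a call lost without WT replicate 2 or KO replicate 2 or 3, with the block (adjusted p = 0.0841) and with the covariate (adjusted p = 0.182). H2-Aa (−0.08), H2-Ab1 (−0.21), H2-Eb1 (−0.16) and the invariant chain Cd74 (0.24) did not pass. Receptors for class I and T cell genes, Cd8a, Cd8b1, Cd3e, Cd247, Klrk1, Klrd1, Klra2 and Pirb, were all removed by the low-count filter, and their sum was 0.545 to 1.86 CPM per library.

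Markers of other cell types were counted beside these values. The 16 microglial markers summed to 261 to 300 CPM in WT and 298 to 319 CPM in KO, with 1 higher, 0 lower and 15 not passed (median 0.11, 6.25% called). Cx3cr1, the fractalkine receptor, had 24.7, 24.2 and 20.3 CPM in WT and 32.2, 35.5 and 32.7 CPM in KO and rose (0.51, SE 0.09, adjusted p = 0.00362 in edgeR), a call lost with the covariate (0.31, adjusted p = 0.115), while the more abundant Csf1r, a growth factor receptor of microglia (−0.04), did not pass. The 20 vessel markers summed to 509 to 539 CPM in WT and 419 to 434 CPM in KO, with 15 lower and 1 higher (median −0.48). That is 80% called, against 16.7% of all tested genes (10.2% lower). Of the most abundant vessel markers, Rgs5, a pericyte regulator, fell (−0.44, SE 0.09), and the glucose transporter Slc2a1 (−0.01) and the phosphatase Ptprb (−0.18) did not pass. The 12 meningeal fibroblast markers summed to 577 to 823 CPM in WT and 480 to 499.6 CPM in KO, with 6 lower and 0 higher (median −0.36, 50% called). The vessel and meningeal calls were not followed with the covariate, the block or a library left out. Blood cell markers summed to 12.9 to 26.8 CPM in WT and 22.3 to 37.97 CPM in KO, most of it from Alas2 of the red cell lineage, with 0 of 6 tested genes past the threshold in edgeR, DESeq2 or limma-voom (0 at an unadjusted p under 0.05). Cd8a and the 4 hemoglobin genes were at 0 reads. Reads that fit several similar genes are not counted, so 0 reads does not show that the hemoglobin genes were silent. In bulk tissue fewer cells of a type and less RNA per cell cannot be told apart, and the part of these shifts in the values of H2-D1, H2-K1 and B2m was not tested.

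Genes whose profile over the 6 libraries lay closest to the chains were of assorted kinds. Likeness was the root mean square difference of log2 CPM, each gene centred on its own mean. Wnt9b (0.03), Samd8 (0.04) and Csrnp1 (0.05) were nearest to H2-D1, Slc35f2 (0.06), Nrap (0.07) and Slc4a9 (0.09) to H2-K1, and Pdcl3, Tmem258 and Chmp1b (0.04 each) to B2m. Samd8, a sphingolipid enzyme gene at 119 to 133 CPM in WT and 138 to 158 CPM in KO, passed the test as H2-D1 did (0.27, SE 0.07, adjusted p = 0.0323 in edgeR), and the other 8 did not.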

How the data were processed

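The authors deposited STAR gene count tables (raw counts, 1 table a library). The submitters' processing notes name Trimmomatic, STAR and mm10. Tool versions and gene annotation: not given in the sources used here. The fourth column of each file (1 strand) was used, since it held 55.4 times the reads of the opposite strand. The 4 summary lines (unmapped, several places, outside genes, more than 1 gene) entered neither library sizes nor tests: they made up 5.97% to 18.2%, 6.97% to 9.83%, 17.1% to 38.5% and 0.0799% to 0.458% of reads. Genes were filtered with filterByExpr (15519 of 24411 kept), scaled by TMM and compared by edgeR's quasi-likelihood test (edgeR 4.0.16, R 4.3.3, limma 3.58.1, DESeq2 1.42.0; Benjamini-Hochberg adjustment over all tested genes, threshold 0.05). The SE of a log2 fold change was taken as its size over the root of the F statistic. CPM use TMM-scaled library sizes; log2 CPM for profile likeness use a prior count of 2. The fit was tested on simulated data.

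Genes were matched by symbol to GENCODE M21 (GRCm38, the assembly of mm10), which held 23376 of the 24411 symbols; promoter sequences came from RefSeq (GRCm38.p6). Motif letters, the chromosome 17 stretch and the H2-D1 to H2-K1 ratio were chosen after values or sequences were seen; the interferon motif was searched with GAANNGAAA first and AANNGAAA second, and both counts are reported. The 9 genes, the lists and the tests were chosen with earlier results of these data known. Named genes were the 9; up to 6 called genes per direction of each pathway list; Psmb5, Psmb6, Psmb7 and Psmb10; the 3 most abundant genes of each cell type list; and the 3 nearest profiles of H2-D1, H2-K1 and B2m. Other genes were named after their values were seen, and results of some listed genes are not reported here. Alternatives were other scalings, filters, tools, the column without strand, removal of Rn45s, a covariate for read assignment (log2 of unassigned over assigned reads, Rn45s left out), the replicate number as a block, and leaving out each library.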

Additional observations from a re-analysis of the deposited data

How the results depend on the processing

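Over 15 alternatives, H2-D1 stayed between 0.25 and 0.41 on the log2 scale and kept its call in 7; it lost it with at least 30 reads required in 3 libraries (adjusted p = 0.0507), so that 0 of the 9 genes were higher there, as with the read assignment covariate (0) and the replicate block (0). Leaving out 1 library gave 0 to 1 higher genes. No gene of the 9 was called lower under any alternative, and none of the other 8 was called. With the covariate the sign turned for B2m (0.15), Tap2 (−0.10), Tapbp (−0.15) and Psmb5 (−0.074). Within groups the covariate varied almost only through WT replicate 3, so it cannot be told apart from that library. Between the genotypes its values did not overlap, so fits with it cannot separate genotype from read assignment. All tested genes called numbered 2585, 1422 with the covariate, 1073 with the replicate block, and 1041 to 3719 with 1 library left out. Pathway genes outside the 9 called higher numbered 4 (1 with the replicate block, 1 to 10 with 1 library left out), and lower 12 (5 with the covariate, 6 with the replicate block, 5 to 18 with 1 library left out). The Psmb8 to Psmb5 log2 ratio difference was −0.10 and ran from −0.385 to 0.0773 with 1 library left out (0.0154 leaving out WT replicate 1, 0.0773 leaving out WT replicate 2), and that of Psmb10 to Psmb7 was 0.09 and ran from −0.0402 (without WT replicate 3) to 0.153; that of Psmb9 to Psmb6 stayed between −0.873 and −0.505.

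The replicate numbers showed no sign of pairing: deviations of same-numbered libraries from their group means correlated at −0.18 to −0.10 and those of other numbers at −0.01 to 0.13. The block is therefore a fit on a shared number only. Such correlations over 3 libraries a group cannot show whether same-numbered libraries were related or handled together. Psmb9 could not be fitted with at least 30 reads in 3 libraries. Psmb9 had 3 to 18 reads in every library, and its SE was 0.35 with and 0.39 without WT replicate 3.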
